A study of Mus musculus with 2 samples.

Results

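Beta cells low in both mature and pancreatic polypeptide (PP) markers were examined in single cell RNA sequencing data of mouse islets, and are called low-low β cells here. They were chosen by their counts. Kept barcodes had more than 1000 genes, fewer than 50000 UMIs (each UMI tags 1 captured molecule), less than 10% of UMIs from mitochondrial genes and no more than 0.1% from haemoglobin genes. A kept barcode was insulin-led when Ins1 and Ins2 together exceeded Gcg, Sst and the sum of Ppy and Pyy and made up at least 20% of its UMIs. An insulin-led cell was low-low when Ppy and Pyy made up under 1% of its UMIs, Ucn3 and Mafa summed to under 300 CPM (counts in 1000000 UMIs of the cell), and Fos and Hspa1a summed to under 1000 CPM. This gave 705 low-low β cells among 3609 insulin-led cells, 8897 kept cells and 16215 barcodes in all.

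The study asked how loss of Npc1 affects islet β cells after birth, and sequenced 1 droplet library (10x Genomics) per genotype. One library held islet cells of WT mice and the other those of Npc1-/- mice, both on a C57BL/6J background and from matings of heterozygous parents. All mice were female and 2 weeks old, and each library was a pool of 3 mice whose cells cannot be assigned to an animal. Npc1 was deleted in the whole body, so islet cells and all other tissues of the Npc1-/- mice lacked it. The WT library had 8569 barcodes with 114324626 UMIs and the Npc1-/- library 7646 barcodes with 127122035 UMIs. The libraries shared 12 barcodes, and 0 of these were low-low β cells.

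Insulin-producing cells are not finished at birth. In the following weeks mouse β cells slow their division, switch on Ucn3, a peptide released with insulin, and raise the transcription factor Mafa. Ppy and Pyy encode hormones of PP cells, and NPC1 carries cholesterol out of the lysosome.

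Low-low β cells made up similar shares of the insulin-led cells in both libraries. The WT library had 350 among 1805 insulin-led cells, or 19.4% (95% Clopper-Pearson interval 17.6 to 21.3). The Npc1-/- library had 355 among 1804, or 19.7% (17.9 to 21.6). The ratio of the shares was 1.01 (0.873 to 1.18), and a change within that interval was not detectable. The other insulin-led classes differed between the libraries by more than their counting error. Mature β cells, with Ppy and Pyy under 1% and Ucn3 and Mafa at 300 CPM or more, took 47.6% of the WT and 35.8% of the Npc1-/- insulin-led cells, and the ratio was 0.752 (0.678 to 0.834). PP-rich β cells, with Ppy and Pyy at 1% or more, made up 24.7% and 44.2%, a ratio of 1.79 (1.59 to 2.01). Stressed β cells, past the limit on Fos and Hspa1a, numbered 150 in WT and 6 in Npc1-/-. Without that limit, low-low β cells made up 20.9% in WT and 19.8% in Npc1-/-. All intervals cover counting error only, and differences between genotypes rest on a single library each, with no replicate check.

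**Figure D1:**
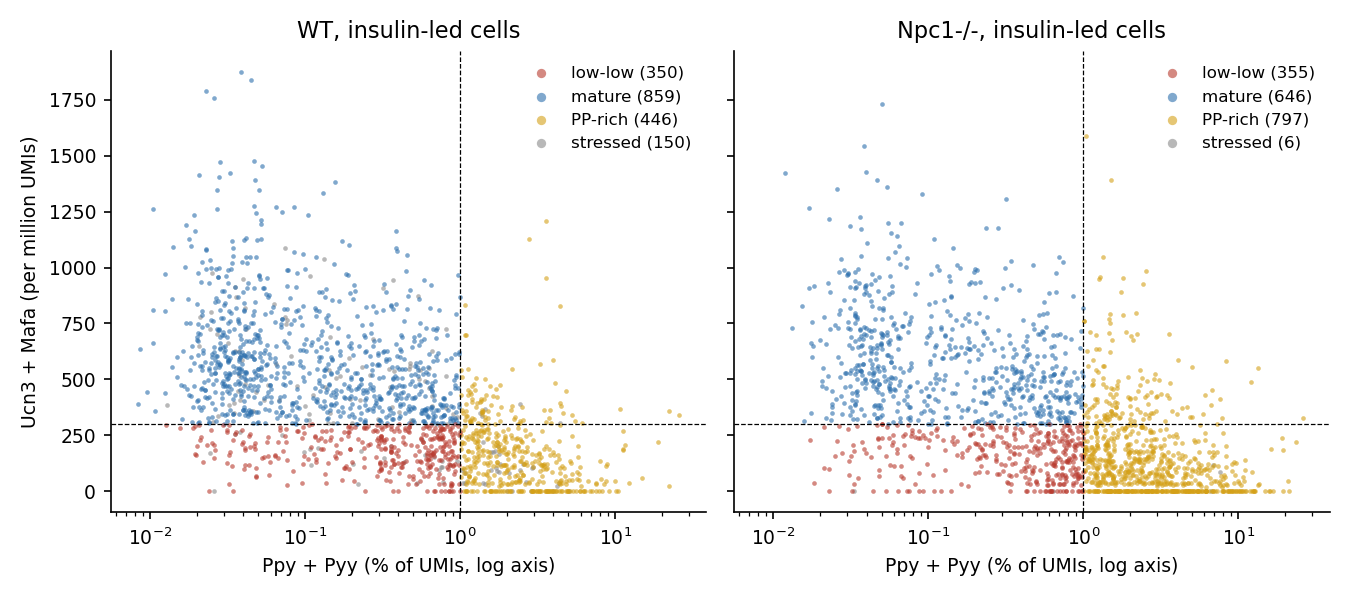
Each point is an insulin-led cell, placed by its Ppy and Pyy share (percent of UMIs, log axis) and its Ucn3 and Mafa level (CPM), with the limits of 1% and 300 CPM dashed. The 350 WT and 355 Npc1-/- low-low β cells fill the lower left field and lie against both limits without a gap.

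The members were deep cells, many of them close to the limits. Their median depth was 30278.5 UMIs and 4122.5 genes in WT and 30533 UMIs and 4272 genes in Npc1-/-. Insulin took a median of 54.1% of the UMIs in WT members and 52.6% in Npc1-/- members, beside 54.8% and 54% in mature β cells. The median Ucn3 and Mafa level was 189 CPM in WT and 165 CPM in Npc1-/-, which stands for 6 and 4 UMIs in a cell. Such small counts place a cell only roughly on this scale. No UMI of either gene was found in 15 WT members (4.29%) and in 34 Npc1-/- members (9.58%). At the other end, 86 WT and 65 Npc1-/- members lay between 250 and 300 CPM. The median Ppy and Pyy share was 0.359% in WT and 0.429% in Npc1-/- members, and 48 and 58 members lay between 0.8 and 1%. Mature β cells had lower medians of this share, 0.0844% in WT and 0.112% in Npc1-/-. The members were thus low in Ppy and Pyy against PP-rich β cells and not against mature β cells. PP-rich β cells had still less Ucn3 and Mafa, with medians of 139.6 and 108 CPM, so the members were low in these genes against mature β cells and not against PP-rich β cells. These values follow from how the cells were chosen and are a description.

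Low-low β cells had β cell genes other than the insulin genes that chose them. Summed over the class, Iapp, the hormone released with insulin, was at 44312.5 and 42311 CPM in the WT and Npc1-/- libraries. Papss2, which makes the sulfate donor of the cell, was at 127 CPM (95% Poisson interval 121 to 134) in WT and 148 CPM (140.4 to 155) in Npc1-/-. It was lower than in mature β cells (164 and 203 CPM) and higher than in PP-rich β cells (97.2 and 122 CPM). Pdx1 and Nkx6-1, transcription factors that keep β cell identity, were at 132 and 192 CPM in WT members and at 127 and 177 CPM in Npc1-/- members. Of the 12 genes in the list of β cell transcription factors, 10 could be compared with mature β cells and 11 with PP-rich β cells, and 0 passed 1.5-fold in both libraries in either comparison. Of all genes tested 1.91% and 1.38% passed it in these comparisons, so a count of 0 in a list this short is near the background.

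Some barcodes also carried genes of another cell class. A barcode was counted as mixed when it had at least 1000 CPM of the acinar, endothelial, stellate, macrophage, Schwann, T cell or B cell list (Cd79a left out of the last), or at least 1% Gcg or Sst. There were 19 such members in WT (5.43%) and 16 in Npc1-/- (4.51%). Of these, 9 and 8 had 1% Gcg or more, 9 and 7 passed the stellate limit, 3 and 4 the endothelial limit, and 1 and 0 the acinar limit. Their median depth was 41000 UMIs in WT and 37978 in Npc1-/-. A doublet caller, Scrublet, marked 12 WT and 6 Npc1-/- members (3.43% and 1.69%), which were kept. Mixed barcodes are in the values below unless stated. Gcg is a case, at 3513 and 3291 CPM in WT and Npc1-/- members, and at 505 and 459 CPM once mixed and cycling barcodes (defined below) were left out. The last values were close to the 479 and 463 CPM of mature and the 527 and 477 CPM of PP-rich β cells treated the same way.

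Against mature β cells, low-low β cells were higher in several genes that were higher still in PP-rich β cells, such as Cd79a and Rbp4, and held a larger share of cycling cells. Levels were compared as log2 ratios of CPM, with 0.5 counts added and relative to the median gene, and a gene was called when it passed 1.5-fold in the same direction in both libraries with at least 20 CPM in either class. Of 3764 genes tested, 56 were higher (1.49%) and 16 were lower (0.425%), or 72 in all (1.91%). The classes were cut from the same counts, so the ratios are a description and have no test. In 35 of those higher, the level of mature β cells was under 20 CPM in a library, and in 6 of those lower, that of members was. These genes were tested there only through the class where they were high, which largely fixed their direction. Without mixed and cycling barcodes, 19 genes were higher and 15 lower.

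Cd79a was among the genes that stayed high without mixed and cycling barcodes. Cd79a, a signalling chain of the B cell receptor, was at 67.9 CPM (63 to 73) in WT and 87.6 CPM (82 to 93.4) in Npc1-/- members, against 20.5 and 19.2 CPM in mature and 104 and 101 CPM in PP-rich β cells. Its log2 ratio was 1.67 (1.51 to 1.83) in WT and 2.08 (1.91 to 2.25) in Npc1-/-, and 1.98 and 2.22 without those barcodes. In Npc1-/- Cd79a reached 20 CPM in members and not in mature β cells, which largely fixed its direction there. The level of members lay between those of mature and PP-rich β cells in each library, and WT stressed β cells had 71.8 CPM. Cd79a was spread over many members, the 5 richest barcodes holding 11.7% of its UMIs in WT and 11.2% in Npc1-/-. The whole B cell list summed to 71.7 CPM in WT and 88.9 CPM in Npc1-/- members, nearly all of it Cd79a, and 3 of its 6 genes were at 0 in each library.

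Rbp4, Cd81, Gpx3, Ramp1 and Tspan8 stood between the other classes in both libraries. Rbp4, the carrier of retinol in blood, was at 342 CPM (331 to 353) in WT and 392 CPM (380.0 to 404) in Npc1-/- members. Mature β cells had 140.2 and 151 CPM and PP-rich β cells 1046 and 905 CPM. The level of members lay between them in each library. Cd81, a tetraspanin of the cell surface, was at 116 and 176 CPM in members, 45.6 and 63.1 CPM in mature and 215 and 255 CPM in PP-rich β cells. Gpx3, a secreted glutathione peroxidase, was at 32.8 and 42.4 CPM in members, against 12.1 and 9.56 CPM in mature β cells, and its 5 richest barcodes held 32.5% of its UMIs in WT and 32.1% in Npc1-/-. Gpx3 was thus less evenly spread over the members than Cd79a. Ramp1, which pairs with the calcitonin receptor-like receptor, was at 40.6 and 39.1 CPM against 16 and 16.7 CPM in mature β cells. Tspan8, another tetraspanin and a PP marker here, was at 39 and 39.4 CPM against 17.8 and 20.7 CPM. Mature β cells were under 20 CPM for Gpx3 and Ramp1 in both libraries and for Tspan8 in WT. There these genes were tested only through members, which largely fixed their direction against mature β cells.

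Maturation genes lay on both sides of the median gene. Without Ucn3 and Mafa, which chose the cells, 14 genes of the list could be compared, of which 10 lay below and 4 above the median gene in both libraries. Their median log2 ratio was -0.34 in WT and -0.29 in Npc1-/-, beside 0 for all genes tested. Cd81 and Rbp4 were among those that passed 1.5-fold upwards, and Trpm5 passed it downwards. Trpm5, a cation channel opened by calcium, was at 92.3 CPM (86.7 to 98.3) in WT and 61.7 CPM (57.1 to 66.6) in Npc1-/- members. In mature β cells it was at 152 and 113 CPM and in PP-rich β cells at 57.4 and 33.2 CPM, so members stood between these classes. Sytl4, a granule docking protein, was at 94.2 and 82.5 CPM in members, 132 and 119 CPM in mature and 55.3 and 50.5 CPM in PP-rich β cells. The log2 ratios of Slc2a2, the glucose transporter, to mature β cells were -0.33 and -0.29. Those of G6pc2, a glucose-6-phosphatase of islets, were -0.41 and -0.58, and those of Ero1lb, which oxidises folding proinsulin, were -0.49 and -0.73. None of Slc2a2, G6pc2 and Ero1lb passed 1.5-fold in both libraries.

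Other genes that were lower than in mature β cells had several functions. P2ry1, a receptor for extracellular ADP, had log2 ratios of -0.73 and -0.90, and Gad1, which makes GABA, had -0.73 and -0.91. Zc3h3 had -1.01 (-1.18 to -0.84) in WT and -1.29 (-1.49 to -1.10) in Npc1-/-, from 32.3 and 25.1 CPM in members and 62.7 and 56.8 CPM in mature β cells. Zc3h3 lies on the minus strand at chr15:75754430-75841915 (mm10), and Mafa, which chose the cells, on the same strand at chr15:75745490-75748228, with 6201 bases between the gene bodies. Of 29 ER folding, 15 exocytosis, 14 prohormone processing and granin, 23 lysosome, 78 OXPHOS and 80 ribosomal protein genes tested, 0 passed 1.5-fold in both libraries, beside 1.91% of all genes. For the shorter of these lists a count of 0 is near that background. The 12 mitochondrially encoded genes tested were all below the median gene in both libraries, with medians of -0.20 and -0.33, and 0 of them passed 1.5-fold.

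**Figure D2:**
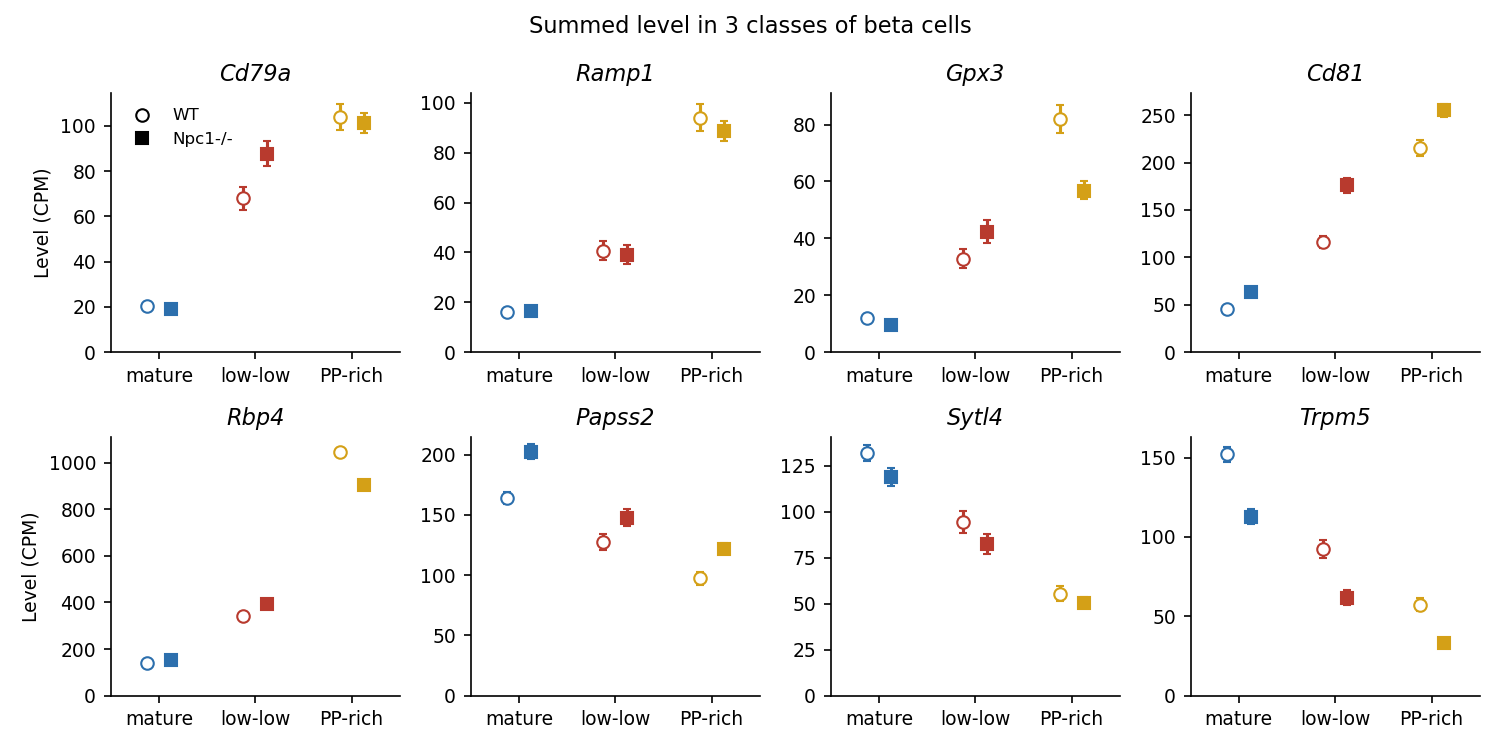
Summed level (CPM) of 8 genes in mature, low-low and PP-rich β cells, with WT as open circles, Npc1-/- as filled squares and 95% Poisson intervals as bars. In both libraries the low-low values of Gpx3, Cd81, Rbp4, Papss2, Sytl4 and Trpm5 sit between those of the other classes, and so do those of Cd79a and Ramp1 (for Ramp1 40.6 and 39.1 CPM).

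Against PP-rich β cells, low-low β cells were lower in Calb1, Folr1 and Tspan8 besides the PP genes of the rule, and higher in Trpm5 and Sytl4. Of 3997 genes tested, 37 were higher (0.926%) and 18 were lower (0.45%), or 55 in all (1.38%). The lower class was under 20 CPM in a library for 20 of those higher and 7 of those lower. Without mixed and cycling barcodes, 8 were higher and 17 lower. Ppy and Pyy, which chose the cells, were at 650.3 and 3305 CPM in WT and at 789 and 3671 CPM in Npc1-/- members. Calb1, a calcium buffer, was at 8.10 and 10.8 CPM in members, against 35.5 and 38.4 CPM in PP-rich β cells. Its log2 ratios were -2.01 (-2.37 to -1.68) in WT and -1.74 (-2.04 to -1.46) in Npc1-/-. Folr1, a folate receptor, had log2 ratios of -1.35 and -1.57, and Tspan8 had -1.71 and -1.55. Clu, a secreted chaperone, had -1.72 and -2.19, and -0.77 and -1.64 without mixed and cycling barcodes. Tspan8 was above 20 CPM in both classes, while Calb1 and Clu in both libraries, and Folr1 in Npc1-/-, reached 20 CPM only in PP-rich β cells, so that limit largely fixed their direction there. Trpm5 was higher than in PP-rich β cells, with log2 ratios of 0.80 (0.66 to 0.94) and 0.98 (0.83 to 1.14), and so were Sytl4 with 0.88 and 0.80 and P2ry1 with 0.82 and 0.85. Of 3 δ cell genes tested (Fam159b, Rbp4 and Sst), 3 were lower than in PP-rich β cells. Once mixed and cycling barcodes were left out 1 was lower, with medians of -0.47 and -0.33. The log2 ratio of Rbp4, averaged over the libraries, was -1.31, and -1.03 without those barcodes. Sst was used to choose the cells. Against mature β cells, 2 of the same 3 genes, Fam159b and Rbp4, were higher in both libraries, beside 1.49% of all genes. Among PP-rich β cells 46 WT and 51 Npc1-/- barcodes had 1% Sst or more, and mixed barcodes made up 15.2% and 10.8%.

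The 24 genes of the cell cycle list, all of them counted, summed to 1390.1 CPM in WT and 962 CPM in Npc1-/- members. They summed to 419 and 279 CPM in mature and to 474 and 446 CPM in PP-rich β cells. Of these genes, 11 could be compared one by one with mature and 11 with PP-rich β cells, but 3 and 3 of them reached 20 CPM in the other class in both libraries. The rest passed that limit through low-low β cells in at least 1 library, which largely fixed the direction of their ratios, so no count of them is given. Mki67, the antigen of dividing cells, was at 55.2 CPM (50.8 to 59.8) in WT and 44.3 CPM (40.3 to 48.4) in Npc1-/- members. Mature β cells had 17.1 and 13.7 CPM and PP-rich β cells 11.9 and 15 CPM of Mki67. Members were highest in each library. Top2a, the topoisomerase of replicating DNA, was at 65 and 48.4 CPM in members against 16.7 and 11.5 CPM in mature and 16.1 and 17 CPM in PP-rich β cells. Cdkn2c, an inhibitor of the kinases that start the cycle, was at 37.9 and 24.3 CPM against 7.31 and 8.55 CPM in PP-rich β cells. It reached 20 CPM only in members in this comparison, which largely fixed its direction.

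These levels came from a minority of the members. Cycling barcodes, with at least 1000 CPM of the list, were 43 of 350 members in WT (12.3%, 9.04 to 16.2) and 33 of 355 in Npc1-/- (9.30%, 6.49 to 12.8). Among mature β cells they were 4.54% (3.25 to 6.15) in WT and 4.02% (2.65 to 5.84) in Npc1-/-. Among PP-rich β cells they were 4.93% (3.12 to 7.37) and 4.39% (3.08 to 6.05). The shares of members lay above those of both other classes in each library, with intervals that did not overlap. Members held 43 of the 106 insulin-led cycling barcodes in WT (40.6%) and 33 of 94 in Npc1-/- (35.1%). In each library 9 members lay within 2-fold of the limit of 1000 CPM, beside 25 and 10 mature and 17 and 29 PP-rich β cells in WT and Npc1-/-. Relative to the number of cycling barcodes, the other classes thus had more cells near the limit than the members had. With every cell thinned to 5000 UMIs, the shares were 13% and 9.71% of members, 4.80% and 4.19% of mature and 5.62% and 4.84% of PP-rich β cells. Cells too shallow for this were 4 and 5 members, 5 and 1 mature and 1 and 12 PP-rich β cells. The order of the classes was the same after thinning. Cycling members were deeper than members without cycling or mixed signal, with medians of 39838 against 29614 UMIs in WT and 35368 against 30055 UMIs in Npc1-/-. Insulin took 46.5% of their UMIs in WT and 42% in Npc1-/-, against 55.3% and 53.3%, and the part of depth in their placement among the members was not tested.

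**Figure D3:**
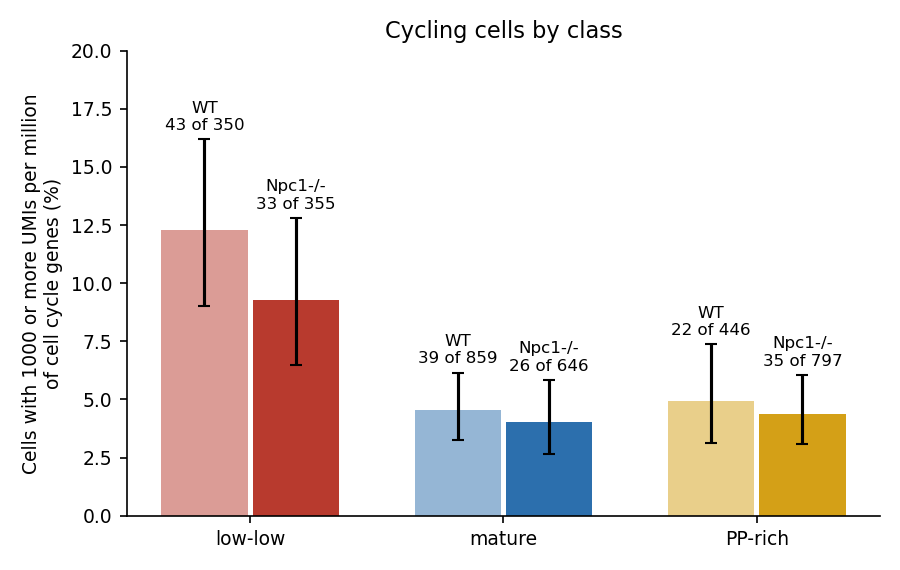
Share of cells (percent) with 1000 CPM or more of the cell cycle list in low-low, mature and PP-rich β cells, pale bars for WT and full bars for Npc1-/-, with 95% Clopper-Pearson intervals and the cell numbers above. The low-low bars stand at 12.3% and 9.30%, and the other 4 bars between 4.02% and 4.93%.

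Within the members, the genes that separate the classes also varied with the level of Ppy and Pyy. With mixed and cycling barcodes left out, members were divided at Ppy and Pyy shares of 0.25 and 0.5%. Rbp4 was at 203, 329 and 535 CPM in WT from the lowest to the highest of the 3 groups, and at 172, 374 and 500.0 CPM in Npc1-/-. Cd79a was at 54.5, 75.5 and 107 CPM in WT and 47.3, 82.7 and 141 CPM in Npc1-/-. Both genes were lowest in the group with least Ppy and Pyy and highest in the group with most, in each library. Cd81 followed the same order, at 64.1, 86.6 and 137 CPM in WT and 127, 137 and 192 CPM in Npc1-/-. Trpm5 ran the other way, at 118, 108 and 78.5 CPM in WT and 78.6, 72.2 and 50.9 CPM in Npc1-/-. Papss2 was at 138, 142 and 117 CPM in WT and 175, 139.9 and 140.1 CPM in Npc1-/-, which is no order common to both libraries. With all members included, Mki67 was at 94.5, 34.1 and 26.3 CPM in WT and 65.4, 53.1 and 22.6 CPM in Npc1-/-, lowest in the group with most Ppy and Pyy. The groups share their libraries and were cut from the same counts, so these orders are a description.

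**Figure D4:**
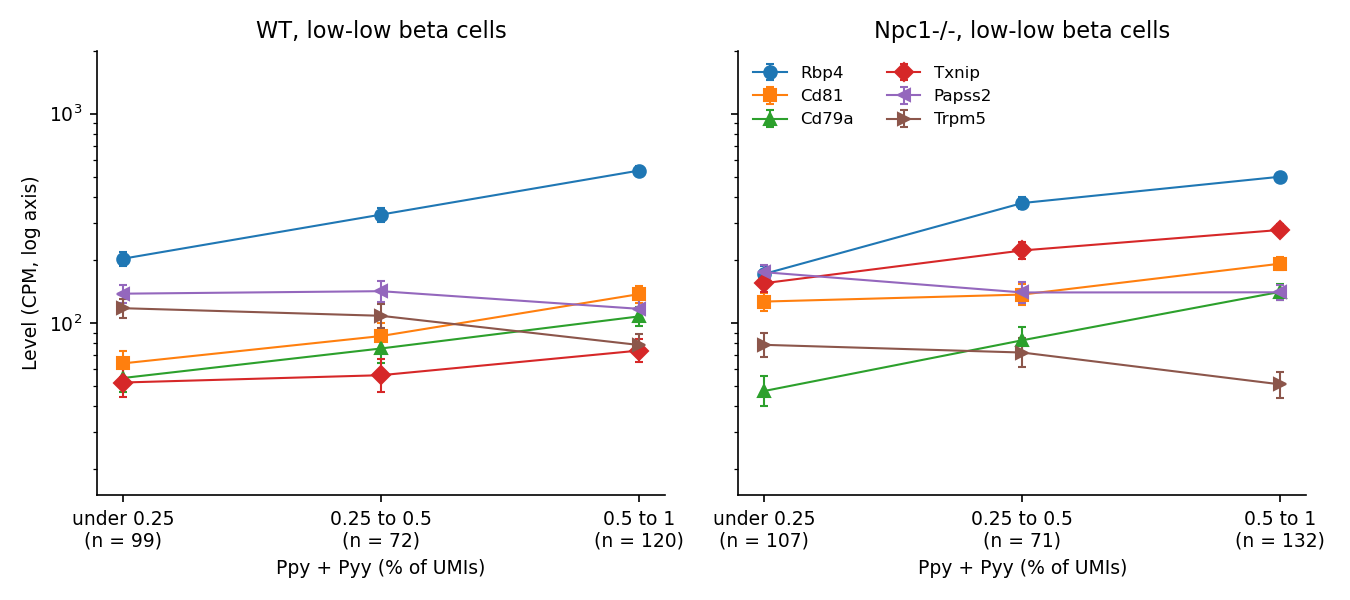
Level (CPM, log axis) of 6 genes in low-low β cells divided by their Ppy and Pyy share (percent of UMIs), without mixed and cycling barcodes, with 95% Poisson intervals and cell numbers under each group. Rbp4, Cd81, Cd79a and Txnip are highest in the group with most Ppy and Pyy and Trpm5 is lowest there, in both libraries.

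Members also varied with the level of Ucn3 and Mafa. From under 100, to 100 to 200, to 200 to 300 CPM, Cd79a was at 89.5, 77.4 and 54.3 CPM in WT and 143, 79.9 and 52.6 CPM in Npc1-/-. Cd81 was at 215, 113 and 89 CPM in WT and 279, 159 and 112 CPM in Npc1-/-. Both genes were highest in the members with least Ucn3 and Mafa. So was Txnip, at 90.8, 56.6 and 50.7 CPM in WT and 358, 174 and 140 CPM in Npc1-/-. Trpm5 ran the other way, at 52.3, 96.6 and 101 CPM in WT and 35.8, 59.7 and 82.3 CPM in Npc1-/-. Across the limit itself, Cd79a was at 53.5 CPM in the 86 WT members from 250 to 300 CPM. It was at 31.1 CPM in the 90 WT mature β cells from 300 to 350 CPM. In Npc1-/- it was at 58 CPM in 65 and 40.1 CPM in 68 such cells. Inside and outside this limit, Cd81 was at 82.8 and 49.6 CPM in WT and 99.5 and 74.8 CPM in Npc1-/-, and Trpm5 at 101 and 148 CPM and 79.3 and 96.2 CPM. Mki67 was at 46.6 and 25.2 CPM in WT and 4.66 and 13.4 CPM in Npc1-/-, Top2a at 44.1 and 18.9 CPM and 0.518 and 12 CPM, and Gpx3 at 26 and 14.3 CPM and 23.3 and 19.6 CPM. Mki67 and Top2a were thus higher inside the limit in WT and lower inside it in Npc1-/-. The Npc1-/- values rested on 9 and 30 UMIs of Mki67 and 1 and 27 UMIs of Top2a, with cycling barcodes included. How few barcodes held these UMIs was not examined. In WT Rbp4 was at 294 and 291 CPM, Txnip at 45.5 and 46.5 CPM and Papss2 at 151 and 149.6 CPM. In Npc1-/- Rbp4 was at 297 and 241 CPM, Txnip at 109 and 76.6 CPM and Papss2 at 155 and 174 CPM. Across the Ppy and Pyy limit, members were set beside PP-rich β cells from 1 to 1.2% with Ucn3 and Mafa under 300 CPM. Rbp4 was at 553 CPM in the 48 WT members from 0.8 to 1% and 655 CPM in 37 such WT cells. In Npc1-/- Rbp4 was at 633 CPM in 58 members and 558 CPM in 58 such cells.

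Low-low β cells of the genotypes were compared next. Members with 5% or more mitochondrial UMIs were 15.4% in WT and 26.8% in Npc1-/-. Those with insulin under 40% of UMIs were 5.43% and 11.5%, and those under 10000 UMIs 3.43% and 5.63%. Npc1 itself was low, at 6.21 CPM (4.81 to 7.90) in WT and 3.02 CPM (2.07 to 4.26) in Npc1-/- members, a log2 ratio of -1.11 (-1.77 to -0.49). It was lower in the library labelled Npc1-/-, but under the limit of 20 CPM and so outside the counts that follow. Where the counted reads lie relative to the deleted part was not examined. Of 4188 genes tested, 53 were past 1.5-fold higher in Npc1-/- (1.27%) and 68 lower (1.62%), or 121 in all (2.89%). In mature β cells the shares were 0.99% higher and 1.12% lower, or 2.11% in all. In PP-rich β cells they were 0.868% and 0.959%, or 1.83% in all. Of the genes called in low-low β cells, 31 of those higher reached 20 CPM in Npc1-/- only and 40 of those lower in WT only, which largely fixed their direction. Without mixed and cycling barcodes, 53 genes were higher and 41 lower in low-low β cells.

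Txnip and Arrdc4 had the highest ratios. Txnip, an arrestin-like protein that limits glucose uptake and binds thioredoxin, was at 58.6 CPM (54.1 to 63.4) in WT and 215 CPM (206 to 224) in Npc1-/- members. Its log2 ratio was 1.80 (1.67 to 1.93). The ratio was 0.77 (0.65 to 0.89) in mature and 1.37 (1.29 to 1.45) in PP-rich β cells. Txnip was higher in Npc1-/- in the 3 classes, and its 5 richest barcodes held 10.8% of its UMIs in WT and 8.99% in Npc1-/- members. Arrdc4, its arrestin-domain relative, was at 5.74 CPM (4.39 to 7.38) in WT and 20.7 CPM (18 to 23.6) in Npc1-/- members, a log2 ratio of 1.76 (1.36 to 2.20). From least to most Ppy and Pyy, Txnip was at 51.9, 56.3 and 73.8 CPM in WT and 155, 222 and 278 CPM in Npc1-/- members without mixed and cycling barcodes.

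Txnip and Arrdc4 are known to answer to glucose through MondoA and ChREBP, which bind paired E-boxes called carbohydrate response elements. Their promoters are shown because these genes had the highest ratios between genotypes. Both had a RefSeq promoter of 300 bases (GRCm38.p6), Txnip at chr3:96557707-96558006 on the plus strand and Arrdc4 at chr7:68749189-68749488 on the minus strand. A pair of CACGNG boxes with 5 bases between them, and CACGTG alone, were searched on both strands. CACGTG is a form of CACGNG, so the motifs can overlap. Capitals mark the matched E-boxes.
Txnip: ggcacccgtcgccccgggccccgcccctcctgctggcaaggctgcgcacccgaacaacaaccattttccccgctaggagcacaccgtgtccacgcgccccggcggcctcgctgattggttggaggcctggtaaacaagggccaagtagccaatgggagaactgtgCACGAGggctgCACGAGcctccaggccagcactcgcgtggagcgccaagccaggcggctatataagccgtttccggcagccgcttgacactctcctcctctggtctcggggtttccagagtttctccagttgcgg
Arrdc4: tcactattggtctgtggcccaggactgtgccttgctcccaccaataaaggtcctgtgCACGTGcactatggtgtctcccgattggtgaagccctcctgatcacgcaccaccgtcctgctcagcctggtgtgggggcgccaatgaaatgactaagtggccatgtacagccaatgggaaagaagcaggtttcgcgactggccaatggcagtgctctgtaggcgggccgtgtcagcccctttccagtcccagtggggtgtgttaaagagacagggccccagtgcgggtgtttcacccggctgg
The paired motif began at base -85 from the start site of Txnip, and 16 of 32851 promoters in the RefSeq set hold it (0.0487%). CACGTG began at base -193 of Arrdc4, and 2349 promoters hold it (7.15%). The paired motif was not found in the Arrdc4 promoter, nor CACGTG in that of Txnip. A match describes the letters and is no evidence of binding. Of 15 glucose response genes tested, 2 passed 1.5-fold, beside 2.89% of all genes, and these were Txnip and Arrdc4, already shown for their ratios. Arrdc4 reached 20 CPM in Npc1-/- only. Of the tested genes 8 lay below the median gene.

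Of the 27 genes in the list of cholesterol synthesis and uptake, 13 were tested and the rest were under 20 CPM in both libraries. Of those tested 3 passed 1.5-fold upwards in Npc1-/-, beside 1.27% of all genes, but Soat1 among them reached 20 CPM in Npc1-/- only. With 20 CPM asked of both libraries, 2 of 12 passed, beside 0.603% of all genes. Hmgcs1, an enzyme of the mevalonate pathway, was at 29.2 CPM (26 to 32.6) in WT and 48.1 CPM (44 to 52.5) in Npc1-/- members, a log2 ratio of 0.64 (0.44 to 0.85). Abca1, a cholesterol exporter, was at 28 and 48.6 CPM with a log2 ratio of 0.72 (0.51 to 0.93). Soat1, which esterifies cholesterol, was at 14.7 and 25.6 CPM with a ratio of 0.72 (0.43 to 1.02). Hmgcs1, Abca1 and Soat1 were the genes past 1.5-fold. Without mixed and cycling barcodes Hmgcs1 was at 0.56 and no longer past it, while Abca1 was at 0.63 and Soat1 at 0.78. The ratios of Hmgcs1 were 0.63 in mature and 0.71 in PP-rich β cells, and those of Abca1 0.52 and 0.47.

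Several immediate early and heat shock genes were lower in Npc1-/-. Of 23 genes in the list 17 were tested. Dnajb1, Dusp1, Fosb and Ier2 passed 1.5-fold downwards but reached 20 CPM in WT only, and Fos and Hspa1a passed it but were capped by the rule in both libraries. Without the rule genes and with 20 CPM asked of both libraries, 11 genes were left and 4 of them (Btg2, Hspa8, Jun and Junb) were lower, beside 0.768% of all genes under the same limit. Jun was at 141 CPM (134 to 149) in WT and 59.5 CPM (55 to 64.4) in Npc1-/- members, a log2 ratio of -1.32 (-1.46 to -1.19). Fosb had a ratio of -1.73, Ier2 of -1.57, Junb of -1.30 and Dusp1 of -1.24. Jun had -1.86 in mature and -1.35 in PP-rich β cells, and stressed β cells numbered 150 in WT and 6 in Npc1-/-. Genotype and the handling of the separate cell preparations cannot be told apart.

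**Figure D5:**
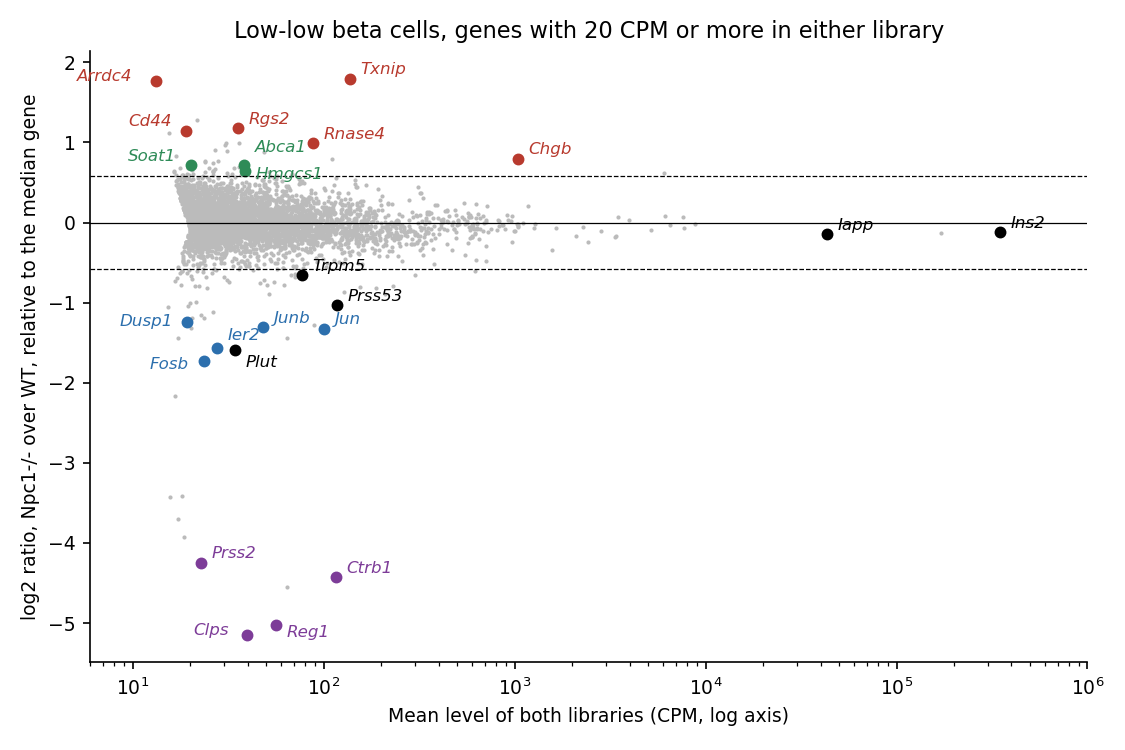
Log2 ratio of Npc1-/- over WT in low-low β cells, relative to the median gene, against the mean level of both libraries (CPM, log axis), 1 point per gene tested and 1.5-fold dashed. Txnip (1.80) and Arrdc4 (1.76) lie highest, immediate early genes such as Jun (-1.32) lie below the lower line, and acinar genes such as Ctrb1 (-4.43) lie at the bottom.

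No tested gene of the mitochondrial, lysosome, mitophagy or apoptosis lists passed the limit, beside 2.89% of all genes tested, and for the shorter lists a count of 0 is near that background. Of 78 nuclear OXPHOS genes tested 0 passed 1.5-fold, with a median of -0.04, and of the 12 mitochondrially encoded genes 0 passed, with a median of -0.02. Of 24 lysosome genes, 16 mitophagy genes and 6 apoptosis genes tested, 0 passed 1.5-fold in either direction, with medians of 0.04, 0.01 and -0.02. Among 29 ER folding and translocation genes 3 were lower and 0 higher, with a median of -0.24, beside 1.62% of all genes lower. The same list had 6 lower in mature (median -0.34, beside 1.12% of all genes) and 3 in PP-rich β cells (median -0.28, beside 0.959%). The ER proteins were Sdf2l1 (234 CPM in WT and 141 CPM in Npc1-/-), Creld2 (84.6 and 57 CPM) and the disulfide isomerase Pdia6 (359.9 and 242 CPM). Among 9 genes of the integrated stress response 1 was lower, the mitochondrial folate enzyme Mthfd2, at 26.3 and 16 CPM. Mthfd2 reached 20 CPM in WT only, which largely fixed its direction. Its log2 ratio was -0.79, and -0.27 without mixed and cycling barcodes, where 0 of 7 genes of the list were lower. None of the genes disallowed in β cells reached 20 CPM. Ins1, Ins2 and Iapp had log2 ratios of -0.13, -0.12 and -0.14, and Papss2 of 0.14 (0.03 to 0.24). Among 11 β cell transcription factors tested, Rfx6 was past 1.5-fold higher (19.8 and 32.6 CPM) and Mnx1 lower (32.3 and 22.6 CPM), and Rfx6 reached 20 CPM in Npc1-/- only.

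In the maturation list 17 genes were tested, of which Syt4 and Cd24a were past 1.5-fold higher and Trpm5 lower in Npc1-/-, beside 1.27% and 1.62% of all genes. Syt4, a synaptotagmin that tunes the calcium response of insulin granules, was at 32.9 CPM (29.6 to 36.6) in WT and 64.1 CPM (59.3 to 69.1) in Npc1-/- members. Cd24a, a small surface glycoprotein, was at 9.41 and 21.7 CPM and so was tested only through Npc1-/-, and without mixed and cycling barcodes it was under 20 CPM in both libraries and Syt4 alone of the list was called higher. Trpm5 had a log2 ratio of -0.66 (-0.80 to -0.51). Rgs2 and Rgs16, which end signals of G proteins, had ratios of 1.18 and 0.97, and Cd44, a hyaluronan receptor, of 1.15. Rnase4 and Ang, ribonucleases of overlapping genes, had 0.99 and 0.89, and the split of molecules between them is uncertain. C1qa, a complement gene of macrophages, was at 19.96 and 41.8 CPM, while the whole macrophage list summed to 22.1 and 42.7 CPM, with 2 and 1 of its 8 genes at 0. C1qa thus made up nearly all of that list in both libraries. It reached 20 CPM in Npc1-/- only, which largely fixed its direction, and the share of background RNA in it was not tested.

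Among the genes that were lower, Plut had a log2 ratio of -1.60 (-1.85 to -1.36), from 50.9 to 17.7 CPM. It reached 20 CPM in WT only, which largely fixed its direction. Plut is antisense to Pdx1, with 1563 bases shared by the gene bodies on chromosome 5, and the use of strand in counting is not given in the sources used here. Pdx1 had a ratio of -0.14 (-0.25 to -0.03). Prss53, a serine protease, had -1.03, Ntrk2, a neurotrophin receptor, -1.19 and the predicted gene Gm47283 -2.16. In the cell cycle list, with 20 CPM asked of both libraries, 11 genes were left and 4 of them (Cdk1, Pbk, Stmn1 and Tubb5) were lower, beside 0.768% of all genes. Its summed level and the shares of cycling members are given above, and the intervals of those shares overlapped between genotypes. Without mixed and cycling barcodes 2 genes of the list could be tested and 0 passed 1.5-fold.

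Some ratios rested on few barcodes. The acinar genes Ctrb1 and Clps, which encode digestive proteins, had log2 ratios of -4.43 and -5.14. The acinar list summed to 546 CPM in WT and 32.3 CPM in Npc1-/- members, Ctrb1 was its most abundant gene in both (221 and 10.8 CPM), and 0 and 1 of its 11 genes were at 0. One WT barcode reached 189932 CPM of the list, and without mixed barcodes 0 of its genes were left to test. The median over members was higher in Npc1-/-, at 0 CPM of the acinar list in WT and 26.1 CPM in Npc1-/-. In mature β cells the list summed to 17.5 and 31.1 CPM, and in PP-rich β cells to 19.6 and 37.9 CPM. Apoe had a ratio of -1.44, with 82.1% of its UMIs in WT members in 1 barcode. Chgb, a granin, was at 736 and 1351 CPM, a ratio of 0.80 (0.76 to 0.84), and 5 barcodes held 27.5% of its UMIs in Npc1-/- members against 6.45% in WT. Chgb had -0.04 in mature and -0.12 in PP-rich β cells, and 0.82 in low-low β cells without mixed and cycling barcodes. That removal did not screen for a list of progenitor genes, whose most abundant gene was Chgb. Members had similar medians of this list (WT 1149 CPM, Npc1-/- 1162 CPM). The richest member differed more (WT 7662 CPM, Npc1-/- 33351 CPM). Fev was also higher in Npc1-/- members, for example with Ucn3 and Mafa under 100 CPM (WT 5.88 CPM, Npc1-/- 17.4 CPM). Whether Chgb and Fev came from the same barcodes was not tested. Chga, another granin, was at 4598 and 7443 CPM, a ratio of 0.62, beside 0.57 in mature and 0.55 in PP-rich β cells. Without mixed and cycling barcodes Chga was at 0.58 and no longer past 1.5-fold.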

How the data were processed

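Islet cells of both genotypes were profiled with 10x Genomics 3′ chemistry. The files deposited by the authors hold UMI counts of genes in barcodes, and the submitters' processing notes name Cell Ranger 3.1.0, Seurat 4.0.3 and mm10. Strand use in counting is not given in the sources used here. Deposited counts were read unchanged and cells were kept and classed by the limits in the report. Members and gene lists were chosen with earlier results of these data known. Counts were summed per class and library (10622936 UMIs in WT and 10597772 UMIs in Npc1-/- members) and scaled to CPM over all UMIs. Log2 ratios used 0.5 added counts and were centred on the median gene among those reaching 20 CPM in a group, which moved them by up to 0.113 (median before centring -0.113 for WT low-low against PP-rich β cells). Intervals are 95% exact Poisson (levels), Clopper-Pearson (shares) and conditional binomial (ratios). Cells are not replicates, so no p-value is given. Genes were named if they belonged to the rule or the lists, or were among the 10 highest or 10 lowest ratios of a comparison, in the full data or without mixed and cycling barcodes. Ang, Apoe and the contents of the last set were chosen after their values were seen. Other limits on the classes, depth, doublets (Scrublet in scanpy 1.11.5), scaling (TMM, edgeR 4.0.16 in R 4.3.3) and added counts were tried. Removing mixed or cycling barcodes, lifting the limit on Fos and Hspa1a and asking 20 CPM of both groups were chosen after seeing the data. The scripts were tested on simulated data and used Python 3.11.15, numpy 2.4.6, scipy 1.17.1 and pandas 2.3.3. Some genes that the rule for named genes would include are not reported here.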

Additional observations from a re-analysis of the deposited data

Results flagged for a closer look

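Several genes had genotype log2 ratios of opposite sign in low-low β cells and in another class. For Chgb, Cd24a, Gpx3 and Sst a ratio on one side was past 1.5-fold, and for Rbp4 none was. These differences between classes were not tested, as each genotype has 1 library. Chgb had a genotype ratio of 0.80 in low-low, -0.04 in mature and -0.12 in PP-rich β cells, and 5 barcodes held 27.5% of its UMIs in Npc1-/- members. Its ratio of low-low over PP-rich β cells was -0.32 in WT and 0.59 in Npc1-/-. Against PP-rich β cells, the genotype ratio in low-low β cells was 1.12 beside -0.27 for Cd24a, 0.29 beside -0.59 for Gpx3 and 0.12 beside -0.27 for Rbp4. For Sst, which was used to choose the cells, it was 0.35 beside -0.92. Barcodes with 1% Sst or more were 46 of 446 PP-rich β cells in WT and 51 of 797 in Npc1-/-, and 0 members in either library. Their part in the Sst ratio was not tested.

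Barcodes that missed a single quality limit also held cells that met the rest of the rule. The limit on mitochondrial UMIs alone left out 6 such barcodes in WT and 11 in Npc1-/-. The limit of 50000 UMIs alone left out 13 in WT and 44 in Npc1-/-, and the haemoglobin limit 1 in each. The limit of 1000 genes alone left out 196 in WT and 42 in Npc1-/-, with median depths of 695 and 596 UMIs, at which the Ucn3 and Mafa limit allows no UMI of either gene.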

How the results depend on the processing

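The shares of low-low β cells followed the limits, while their ratio between genotypes stayed within 0.898 to 1.15 under the alternatives run. The shares in WT and Npc1-/- were 10.4% and 12% with Ucn3 and Mafa under 200 CPM, 29.8% and 26.7% under 400 CPM, 11.9% and 11.3% with Ppy and Pyy under 0.5%, 24.3% and 23.8% after thinning to 5000 UMIs and 22.3% and 22% with a mitochondrial limit of 5%. The WT share was 17.6% without cells at 200 CPM of cell cycle genes. Genes past 1.5-fold between genotypes numbered 240 with Ucn3 and Mafa under 200 CPM, 194 with Ppy and Pyy under 0.5%, 332 after thinning and 41 with at least 50 CPM. Against mature β cells they numbered 43 after thinning, 33 without cells at 200 CPM of cell cycle genes and 26 with at least 50 CPM, and against PP-rich β cells 28 and 23 under the last 2 settings. Alternatives chosen after seeing the data gave 34 and 30 without cycling barcodes and 34 and 25 without cycling and mixed barcodes, and, with 20 CPM asked of both groups compared, 31 and 28, and 50 between genotypes. Of 185 gene ratios past 1.5-fold, 52 were no longer past it under some alternative, and 4 of the 185 reversed. Gcg against mature β cells was -0.58 in WT and -0.21 in Npc1-/- with insulin at 40% of UMIs or more, and -0.12 without mixed and -0.10 without mixed and cycling barcodes in Npc1-/-. Gcg against PP-rich β cells in WT was 0.00527 and 0.051 under these 2 removals, and Sparc against mature β cells in Npc1-/- was -0.75 with insulin at 40% or more. No paired analysis was possible because each genotype has 1 library, and no replicate could be left out.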
